A study of Mus musculus with 4 samples.

Results

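Very wide accessible domains were taken from a single set of ATAC-seq peaks in mouse bone mesenchymal stem cells (MSCs). A peak was a member if it lay on an autosome, if the peak caller had assigned it to both hypoxia and normoxia, and if it was at least 8000 bp wide. Of the 128055 peaks, 1272 met this rule, which is 0.993% of the peaks and 8.05% of the width that all peaks cover. The widths and the assignment came from a caller run on the same 4 libraries that are compared here, so neither is treated as a result. The MSCs came from limb bones of wild-type C57BL/6N male mice of 3 to 5 months, were grown at low oxygen, and were sorted as CD45- Ter-119- CD140a+ Sca-1+ cells. The sorted cells were then kept for a week in hypoxia (2% O2) or in normoxia (21% O2), with 2 libraries per condition, which the study describes as independent experiments. No allele, drug or transgene separated the groups.

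In ATAC-seq the Tn5 transposase cuts DNA that is not wrapped in nucleosomes, so most peaks are short and mark a promoter or an enhancer. Stretches of open chromatin that run over many kilobases are known from strongly transcribed gene bodies, from clusters of enhancers and from genes that define a cell's identity. Lists of genes for the matrix, the contractile cytoskeleton and rapidly induced transcription factors are among those looked up below. They were chosen with earlier results of these data known.

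The sequences just upstream of 5 start sites are shown because these genes lie in the domains on which the comparisons turn. Klf2, H3f3b and Malat1 are among the domains with the lowest p-values for a fall, Trpm8 is among those for a rise, and Myh9 is the widest domain with a single start. Each line gives 250 bases, 5′ to 3′ on the gene's strand, from RefSeq (GRCm38.p6), and none of them overlaps an annotated exon. The positions are chr8:72318812-72319061 (+) for Klf2, chr11:116024505-116024754 (-) for H3f3b, chr19:5802673-5802922 (-) for Malat1, chr15:77842176-77842425 (-) for Myh9 and chr1:88306485-88306734 (+) for Trpm8. Capitals mark matches to 6 motifs, searched on both strands. They are TGANTCA, the AP-1 motif, then CCAAT, then TGACGTCA, bound by CREB proteins, then GGGCGG, the GC box, then TATAAA, and CACGTG, the E-box.
Klf2: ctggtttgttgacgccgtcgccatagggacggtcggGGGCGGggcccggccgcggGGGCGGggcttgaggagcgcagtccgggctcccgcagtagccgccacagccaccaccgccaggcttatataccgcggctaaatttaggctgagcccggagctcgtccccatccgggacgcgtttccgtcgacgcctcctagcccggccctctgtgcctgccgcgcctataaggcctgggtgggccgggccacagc
H3f3b: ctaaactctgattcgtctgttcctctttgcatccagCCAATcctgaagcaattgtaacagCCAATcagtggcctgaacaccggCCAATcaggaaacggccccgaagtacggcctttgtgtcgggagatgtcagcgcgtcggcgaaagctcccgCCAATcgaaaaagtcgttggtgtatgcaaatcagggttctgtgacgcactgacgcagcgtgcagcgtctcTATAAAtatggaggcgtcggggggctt
Malat1: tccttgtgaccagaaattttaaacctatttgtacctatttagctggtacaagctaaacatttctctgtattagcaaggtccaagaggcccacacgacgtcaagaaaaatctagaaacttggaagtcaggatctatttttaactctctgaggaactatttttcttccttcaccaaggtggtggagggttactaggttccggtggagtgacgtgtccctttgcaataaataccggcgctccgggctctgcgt
Myh9: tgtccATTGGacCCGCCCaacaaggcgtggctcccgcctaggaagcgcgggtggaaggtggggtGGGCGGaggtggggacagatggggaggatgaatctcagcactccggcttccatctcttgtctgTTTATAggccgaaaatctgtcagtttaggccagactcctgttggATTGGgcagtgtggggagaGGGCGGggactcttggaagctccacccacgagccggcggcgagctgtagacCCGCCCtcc
Trpm8: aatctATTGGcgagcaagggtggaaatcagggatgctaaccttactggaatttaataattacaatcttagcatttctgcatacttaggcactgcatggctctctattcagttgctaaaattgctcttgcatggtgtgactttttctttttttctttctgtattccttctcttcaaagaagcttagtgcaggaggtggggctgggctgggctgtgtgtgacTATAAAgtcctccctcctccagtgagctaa
Klf2 held 2 GGGCGG motifs, H3f3b held 4 CCAAT motifs and a TATAAA, and Trpm8 held a CCAAT and a TATAAA. The Malat1 window held none of the 6 motifs, and Myh9 held 7 matches. Over 32841 windows of this length upstream of RefSeq starts, GGGCGG was found in 32.7%, CCAAT in 33.9%, TATAAA in 12.4%, TGANTCA in 6.75%, CACGTG in 6.02% and TGACGTCA in 1.55%. For the 1053 windows whose start lay in a wide domain, the shares were 61.3%, 32.4%, 7.22%, 5.79%, 7.31% and 2.47% in the same order. A match is a match of letters and does not show that a factor was bound.

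The domains were from 8000 to 85500 bp wide, with a median of 10200 bp and quartiles of 8800 and 13220 bp. There were 601 domains under 10000 bp, 457 from there to under 15000 bp and 214 of 15000 bp or more, and 29 reached 30000 bp. All 19 autosomes held some, from 26 on chromosome 13 to 130 on chromosome 7. At the threshold, the narrowest domains in genome order were those of Rftn2, Fzd7 and Ptma at 8000 bp, with log2 fold changes of -0.33, -0.30 and -0.26. The nearest shared autosomal peaks below it were 7900 bp wide and lay near Fam129b, at Acvr1 and Upp2, and at Gm19426, with log2 fold changes of -0.0081, -0.53 and -0.42. Only 3 peaks of this width were assigned to hypoxia only and 0 to normoxia only, and X held 1 shared peak of this width, at Flna.

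Domains that came within 1 kb of a protein-coding transcript's start (GENCODE M21) were called promoter domains, and the rest distal. By this rule 768 domains (60.4%) were promoter domains and 504 were distal, against 13.2% promoter peaks among shared autosomal peaks under 8000 bp. The promoter share rose with width, from 3.67% of shared autosomal peaks under 500 bp through 45.2% at 4000 to under 8000 bp to 65.4% at 15000 bp or more. A wider interval meets a start more often by its length alone, so this order is a description. Of the distal domains, 274 overlapped an exon, 111 overlapped no protein-coding gene and the rest lay in introns. Distal domains lay a median of 19470 bp from the nearest start, and 47 of them held the start of a long noncoding RNA.

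Starts of 912 protein-coding genes lay in the domains, which is 4.40% of the 20733 autosomal protein-coding genes. The domains overlapped 1377 protein-coding genes in all and held 261 of them from end to end, together with 112 long noncoding genes. In 626 domains there were starts of exactly 1 gene, in 104 of 2 genes and in 34 of 3 or more. Genes held whole included Col1a1, the main collagen of bone, the matrix gene Thbs1, the tropomyosin gene Tpm4, the focal adhesion gene Zyx, the colony-stimulating factor Csf1, and the pairs Hoxa9 and Hoxa10, and Hoxc9 and Hoxc10, which encode positional transcription factors.

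Where a domain held the starts of a single gene, more of its width usually lay downstream of the first start than upstream. Width was measured from the first start in the gene's direction, so later starts of the same gene count as downstream. The downstream part can also run past the end of a short gene, which was not checked. The median reach was 2540 bp upstream of the first start and 7648 bp downstream, and 507 of the 626 domains (81.0%) had more of their width downstream. In 133 of them at least 90% of the width was downstream, and in 4 at least 90% was upstream. Shared autosomal peaks of 4000 to under 8000 bp with 1 gene had medians of 1670 and 3306 bp, and 71.7% of them reached further downstream.

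Domains also lay close to one another. There were 302 domains within 10 kb of another, in 131 runs of up to 5 domains, and 101 had a neighbour within 1 kb. The run with most domain sequence was that of Cemip, where 3 domains covered 149 kb of a 151 kb stretch. Other long runs lay over Hjurp, the Ugt1a cluster and Trpm8 (97.3 kb), Ski and Morn1 (93.3 kb), Col5a1 (87.2 kb), and Fancc and 2010111I01Rik (86.0 kb). Neighbouring domains of a run are therefore not separate loci, and their counts below are counts of peaks.

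The 4 libraries had totals of 26680936 to 29965523 reads, and the median domain held 769 and 849 reads in hypoxia against 438 and 548 in normoxia. Nuclear peaks held 49.2% and 53.2% of the library total in hypoxia and 31.0% and 35.2% in normoxia, and mitochondrial peaks held 7.77% and 9.13% against 1.5% and 2.34%. Since the deposited values are scaled to the library total, these shares move with every value compared as deposited, and their part in the results was not tested. Promoter peaks were found for all 7 stromal markers (Pdgfra, Ly6a, Thy1, Eng, Cd44, Prrx1 and Twist1), whose summed values were 1448 and 1489 in hypoxia against 774 and 863 in normoxia. Of 15 blood and endothelial markers, 7 had no promoter peak, among them Ptprc, Itgam, Cd3e, Gata1, Emcn and Cdh5, and the sums were 718 and 695 in hypoxia against 448 and 502 in normoxia. Most of the latter came from 1 domain that Cd68 shares with Eif4a1 and Mpdu1. In bulk libraries a change in every cell and a change in the share of cells cannot be told apart.

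As deposited, the domains had lower values in normoxia. A deposited value is the number of reads in a peak per 10000000 of the library total and is not divided by width, so levels of different peaks are compared per kb. The median domain had 24.8 and 25.7 per kb in hypoxia against 14.9 and 16.7 per kb in normoxia. Both normoxia libraries were below both hypoxia libraries, with a hypoxia mean of 25.2 ± 0.681 and a normoxia mean of 15.8 ± 1.25 (SD, n = 2 per condition, two-sided exact permutation p = 0.333, the smallest that 2 against 2 allows). Shared autosomal peaks under 8000 bp had lower medians, of 15.04 and 16.24 per kb in hypoxia against 12.1 and 13.3 in normoxia. The domains held 4.33% and 4.54% of the library total in hypoxia against 2.56% and 2.88% in normoxia, and the means differed by -1.72 percentage points (exact permutation p = 0.333). Of the reads in nuclear peaks they held 8.81% and 8.53% against 8.23% and 8.17%, so that this share differed by -0.465 points, with both normoxia libraries again lower.

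Medians of log2(value + 1) were also compared within each library. The median of the domains exceeded that of narrower shared autosomal peaks by 3.95 and 3.93 in hypoxia and by 3.51 and 3.55 in normoxia. The excess was smaller in both normoxia libraries (difference -0.41, pooled SD 0.0235, n = 2 per group, exact permutation p = 0.333). Set against the next class down, shared autosomal peaks of 4000 to under 8000 bp, it was 1.10 and 1.09 in hypoxia and 1.07 in both normoxia libraries, a difference of -0.029 (pooled SD 0.0047, exact permutation p = 0.333). Both normoxia libraries were again lower, but by less than in the comparison with all narrower peaks. Promoter peaks make up 60.4% of the domains and 13.2% of narrower peaks, so the excess was also taken within each place. Promoter domains exceeded narrower promoter peaks by 2.04 and 2.05 in hypoxia against 2.00 in both normoxia libraries, a difference of -0.049 (pooled SD 0.00083, exact permutation p = 0.333). Distal domains exceeded narrower distal peaks by 3.73 and 3.62 against 3.29 and 3.35, a difference of -0.36 (pooled SD 0.0627, exact permutation p = 0.333). Beside peaks of 4000 to under 8000 bp in the same place the groups overlapped, with differences of -0.019 for promoter domains and -0.055 for distal domains (exact permutation p = 0.667 for each).

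**Figure D1:**
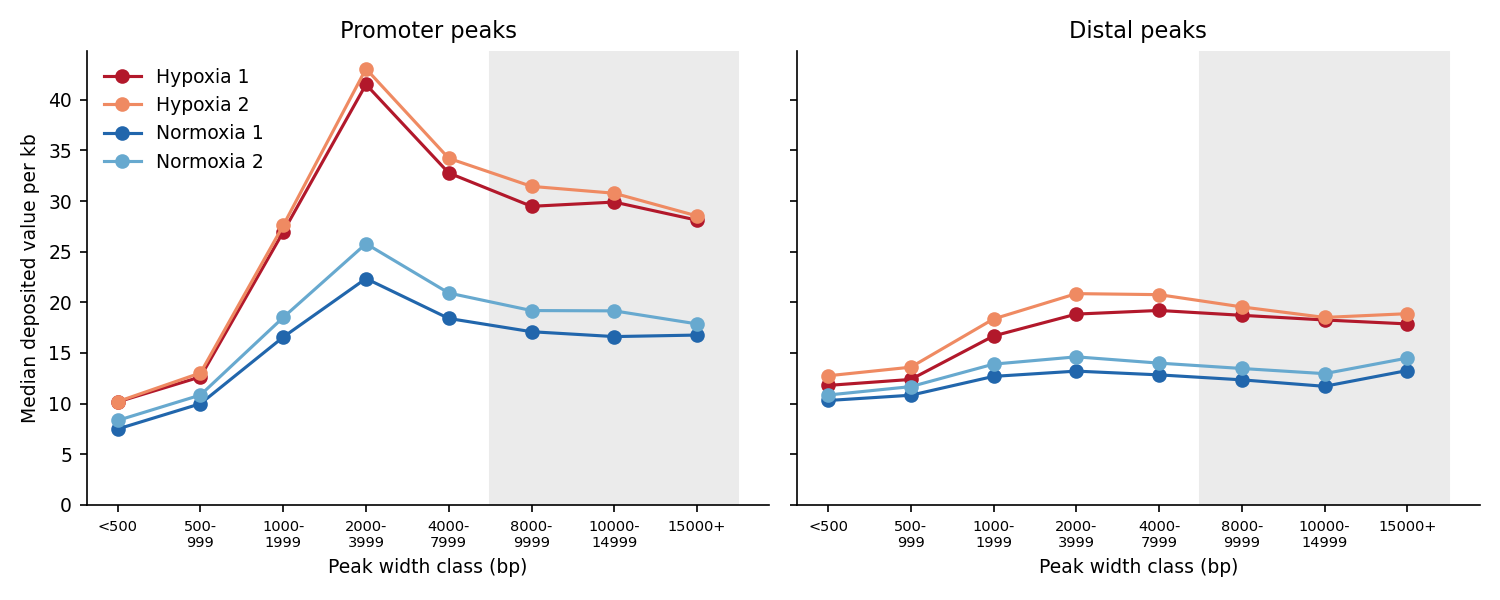
Median deposited value per kb (y axis) of shared autosomal peaks by width class in bp (x axis), for promoter peaks (left) and distal peaks (right), with 1 line per library and the 3 classes of wide domains shaded. As deposited, in every shaded class both normoxia lines lie below both hypoxia lines, and promoter values peak at 2000 to under 4000 bp, where the medians are 41.5 and 43.1 in hypoxia, while distal values there are 18.8 and 20.9.

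Per kb, the widest domains were not the most accessible. Promoter peaks of 2000 to under 4000 bp had medians of 41.5 and 43.1 in hypoxia against 22.4 and 25.8 in normoxia. Promoter domains had 29.3 and 30.7 against 16.9 and 19.0, and those of 15000 bp or more had 28.1, 28.5, 16.8 and 17.9. Distal domains were lower, at 18.5 and 19.2 in hypoxia against 12.3 and 13.6 in normoxia. The median log2 value of promoter domains exceeded that of distal domains by 0.715 and 0.764 in hypoxia and by 0.569 and 0.581 in normoxia. This excess was smaller in both normoxia libraries than in both hypoxia libraries (difference -0.165, pooled SD 0.0256, exact permutation p = 0.333).

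The change of each domain was tested with limma on log2(value + 1) after scaling by relative log expression (RLE) factors, fitted over all 128055 peaks with an adjusted p under 0.01. By this fit 277 domains (21.8%) were lower in normoxia and 39 (3.07%) were higher. Among all peaks 4.57% were called lower and 1.77% higher. The median log2 fold change of the domains, normoxia over hypoxia, was -0.20, against -0.0040 over all peaks. The shares called lower were 20.1%, 21.4% and 27.1% in the 3 classes of rising width, and 16.7% at 4000 to under 8000 bp. The shares called higher were 2.16%, 2.19% and 7.48%, and 1.52% at 4000 to under 8000 bp, and of the distal domains of 15000 bp or more 14.9% were called higher and 13.5% lower. In the same order of classes the median log2 fold changes were -0.20, -0.20 and -0.18, and -0.19, so the median hardly moved with width. Reads per peak rose with width over all peaks (Spearman's rho 0.92 between width and mean value), and the part of this in the shares called was not tested. Without the first or without the second hypoxia library the same test called 0 domains and 0 peaks of any width, while 353 and 447 domains were lower and 85 and 49 higher at an unadjusted p under 0.05. Without the second normoxia library the median log2 fold change of the domains was -0.20. On the recovered reads of all 4 libraries edgeR called 282 to 292 domains lower and 43 to 53 higher. Over all peaks it called 6788 to 7296 lower and 3257 to 3649 higher. DESeq2 called 290 domains lower and 35 higher, and over all peaks 3373 lower and 121 higher.

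The direction of the change depended on the scaling. As deposited, 893 domains were lower and 10 higher, beside 24.0% and 0.391% of all peaks, and both normoxia libraries were below both hypoxia libraries in 1197 domains (94.1%) and above them in 18, beside 59.5% and 6.94% of all peaks. With an equal total over peaks, 39 domains were lower and 194 higher (0.837% and 6.84% of all peaks). With quantile normalisation the counts were 16 and 157 (0.72% and 0.905% of all peaks), and with cyclic loess, which removes differences that follow the value of a peak, they were 3 and 278 (1.31% and 1.42% of all peaks). These scalings also move the median of all peaks, to -0.44 as deposited and 0.26 with an equal total. Relative to the median of all peaks, the domains were at -0.23 as deposited, -0.19 with RLE and -0.17 with an equal total, but at 0.15 with quantile normalisation and 0.20 with cyclic loess. The direction of the domains, also relative to other peaks, thus depended on the scaling.

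**Figure D2:**
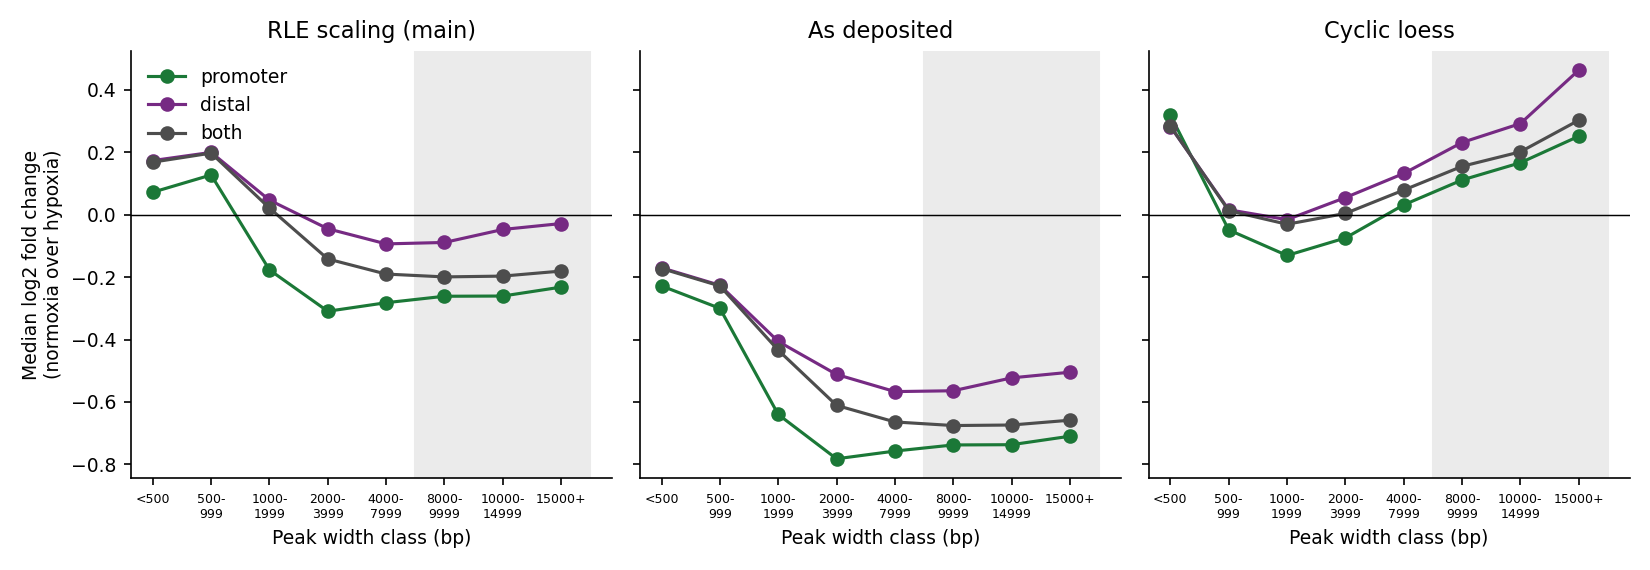
Median log2 fold change of normoxia over hypoxia (y axis) by width class in bp (x axis) for promoter, distal and all shared autosomal peaks under 3 scalings, with the classes of wide domains shaded. Medians of the wide classes lie below 0 with RLE scaling and as deposited and above 0 with cyclic loess, and the promoter line lies below the distal line in every wide class.

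The order of promoter and distal domains was the same in all scalings tried. The median log2 fold change was -0.26 in promoter and -0.07 in distal domains with RLE scaling, and the promoter median was the lower one in each of the 5 scalings, with differences from -0.11 with cyclic loess to -0.18 as deposited. Of the promoter domains 217 (28.3%) were called lower and 12 (1.56%) higher with RLE scaling, beside 16.4% and 0.421% of narrower promoter peaks. Of the distal domains 60 (11.9%) were called lower and 27 (5.36%) higher, beside 2.23% and 2.12% of narrower distal peaks. With RLE scaling, distal domains over exons were at -0.03, those in introns at -0.09 and those outside genes at -0.14. The fold change followed the level per kb (Spearman's rho -0.69 across the 1272 domains, which share libraries and are not independent) and did not follow the width (rho 0.013). By quartile of the level, the medians were 0.12, -0.13, -0.27 and -0.38 with RLE scaling, and 0.40, 0.23, 0.15 and 0.09 with cyclic loess. Of the 277 domains called lower, 180 were in the top quartile, and of the 39 called higher, 30 were in the bottom quartile, where 32.1% of domains were promoter domains. Shared autosomal peaks were also split into deciles of value per kb. In the highest decile promoter domains were at -0.42 and narrower promoter peaks at -0.40, and in the decile below it they were at -0.32 and -0.29. Distal domains were at -0.32 in both deciles, and narrower distal peaks at -0.26 and -0.13. In the lowest decile the order was the other way, with promoter domains at 0.43 and narrower promoter peaks at 0.22, and distal domains at 0.34 and narrower distal peaks at 0.20. Promoter domains were also above narrower promoter peaks in the second decile from the bottom (0.26 against 0.15) and in the fourth (0.11 against 0.08).

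**Figure D3:**
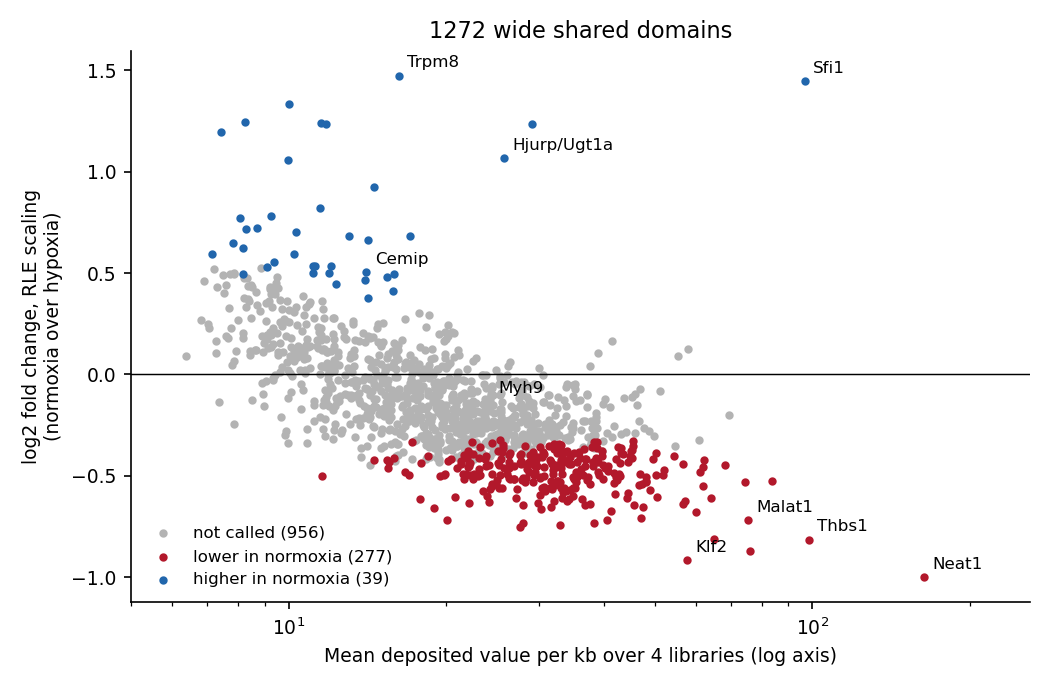
Each of the 1272 domains by its mean deposited value per kb over the 4 libraries (x axis, log scale) and its log2 fold change with RLE scaling (y axis, normoxia over hypoxia), coloured by the limma call. With RLE scaling, domains called lower, such as Neat1 at 164 per kb, lie at high values, and most of those called higher lie at low values, with Sfi1 at 96.6 per kb as an exception. With cyclic loess 278 domains are called higher and 3 lower.

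The domain with the highest value, as deposited and per kb, lay over a nuclear long noncoding RNA. Neat1, the scaffold of paraspeckles, lay in a distal domain of 37000 bp at chr19:5815901-5852900 that also overlaps Frmd8. It had values of 8487 and 9249 in hypoxia against 2621 and 3849 in normoxia, which is 229 and 250 per kb against 70.8 and 104 per kb. The groups did not overlap, and the domain was called lower (log2 fold change -1.0, SE 0.084, adjusted p = 4.27e-07). Malat1, a noncoding RNA of nuclear speckles, lay next to it in a domain of 18500 bp at chr19:5792901-5811400. Its values were 1910 and 1968 in hypoxia against 801 and 893 in normoxia. Again the groups did not overlap and the domain was called lower (-0.72, SE 0.069, adjusted p = 2.77e-08). With cyclic loess Neat1 was still called lower (-0.21), whereas Malat1 was at -0.09 with an adjusted p of 0.361. With an equal total and with quantile normalisation it was Neat1 that lost the call (-0.71 and -1.26, adjusted p = 0.0900 and 0.145), while Malat1 was called lower in both (-0.43 and -0.60).

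Domains with some of the lowest p-values for a fall held a matrix gene, a transcription factor gene and a histone gene. Thbs1, the matrix glycoprotein thrombospondin 1, lay in 24400 bp at chr2:118108501-118132900. It had values of 2980 and 3851 in hypoxia against 1320 and 1444 in normoxia, with hypoxia higher throughout (-0.82, SE 0.069, adjusted p = 1.35e-09). Klf2, a Krüppel-like transcription factor whose upstream bases are shown above, lay in 11000 bp at chr8:72316101-72327100. Its values were 911 and 922 in hypoxia against 315 and 385 in normoxia, so that normoxia was lower in both libraries (-0.92, SE 0.086, adjusted p = 1.49e-08). H3f3b, one of the genes for histone H3.3, lay in 8500 bp at chr11:116016601-116025100. Its values of 738 and 832 in hypoxia against 304 and 338 in normoxia did not overlap (-0.81, SE 0.086, adjusted p = 1.75e-07), but 28.2% of the 32-base words sampled from it occur elsewhere in the genome, against a median of 2.22% over the domains. With cyclic loess Klf2 (-0.39) and H3f3b (-0.30) were still called lower, whereas Thbs1 (-0.13) was not. Leaving out either normoxia library also ended the call of Thbs1 (adjusted p = 0.284 without the first and 0.261 without the second). The 3 domains called lower under cyclic loess were those of Klf2, H3f3b and Neat1.

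Crlf2, a subunit of the receptor for thymic stromal lymphopoietin, was among the 6 domains with the highest value per kb. Its 8200 bp at chr5:109551701-109559900 had values of 862 and 961 in hypoxia against 365 and 562 in normoxia. The groups did not overlap, and the domain was called lower with RLE scaling (-0.53, SE 0.10, adjusted p = 0.000667), but was at 0.016 with cyclic loess. DESeq2 did not call it (adjusted p = 0.0957). Its normoxia libraries lay far apart, and the fold change was -0.27 without the first and -0.77 without the second.

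Of the 39 domains called higher, 27 were distal. As deposited, 18 of the 39 had both normoxia libraries above both hypoxia libraries and 10 were called higher, and with cyclic loess 37 were called higher. The highest by value was Sfi1, which encodes a centrosomal protein, in 16300 bp at chr11:3183901-3200200. It had values of 1192 and 949 in hypoxia against 2096 and 2062 in normoxia. The normoxia values were higher in both libraries (1.44, SE 0.088, adjusted p = 5.3e-13), and 16.0% of the sampled words in this domain occur elsewhere in the genome. With cyclic loess its fold change was 2.09, with an adjusted p of 0.0909. Leaving out either normoxia library ended its call (adjusted p = 0.342 and 0.301), as did an equal total (adjusted p = 0.0405).

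In a run of 3 domains on chromosome 1, 2 were also called higher, and the domain between them was not called. The domain of 59100 bp at chr1:88211301-88270400 overlaps the Ugt1a cluster, whose genes encode UDP-glucuronosyltransferases, and holds starts of Ugt1a1, Mroh2a and Hjurp, a chaperone of the centromeric histone. It had values of 1338 and 1105 in hypoxia against 1777 and 1883 in normoxia. The normoxia libraries were higher as deposited (1.07, SE 0.082, adjusted p = 1.38e-10 with RLE scaling), and repeated words made up 2.03%. With cyclic loess the fold change was 1.72 with an adjusted p of 0.0309. Leaving out either normoxia library ended this call too (adjusted p = 0.375 and 0.346). Trpm8, the cold-sensing cation channel, lay in 16800 bp at chr1:88294201-88311000. Its values were 211 and 155 in hypoxia against 368 and 356 in normoxia, with no overlap (1.47, SE 0.12, adjusted p = 1.07e-09).

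The remaining 2 of the 5 lowest p-values for a rise, like that of Sfi1, lay in repetitive sequence. A distal domain of 9100 bp in Tmem267, at chr13:119608801-119617900, had values of 217 and 178 in hypoxia against 359 and 308 in normoxia. The groups did not overlap (1.24, SE 0.12, adjusted p = 2.66e-08), and 26.4% of the sampled words were repeated. A domain of 8300 bp at chr4:3061901-3070200, which overlaps no protein-coding gene, had values of 68.3 and 50.3 in hypoxia against 105 and 110 in normoxia. Here too normoxia was higher in both libraries (1.33, SE 0.15, adjusted p = 6.22e-07), with 15.7% repeated words. Over the 10 domains with a rise of at least 1 on the log2 scale the median share of repeated words was 14.0%, from 2.03% to 35.7%, against 3.64% in the other 29 called higher and 2.24% in those called lower. Of the 42 domains with at least 10% repeated words, 9 were called higher and 11 lower. The part of multiple mapping in these values was not tested.

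**Figure D4:**
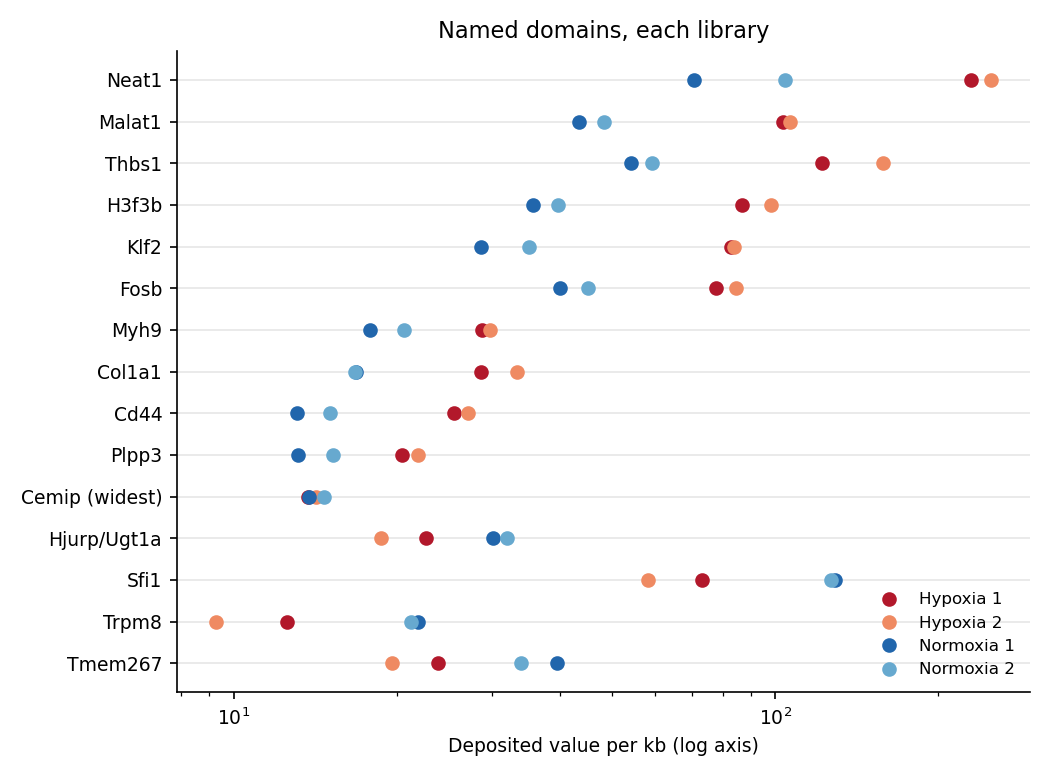
Deposited value per kb (x axis, log scale) of 15 named domains (y axis) in each of the 4 libraries, hypoxia in red and orange and normoxia in blue. As deposited, normoxia points lie to the left in the upper 10 domains, such as Klf2 at 28.6 and 35.0 against 82.8 and 83.9, overlap with hypoxia at Cemip and lie to the right in Hjurp/Ugt1a, Sfi1, Trpm8 and Tmem267.

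Several of the widest domains ran through gene bodies away from the annotated start. The widest of all, 85500 bp at chr7:83994201-84079700, lay in Cemip, which encodes a protein that breaks down hyaluronan, 6802 bp from the start. It had values of 1174 and 1211 in hypoxia against 1178 and 1253 in normoxia. The groups overlapped as deposited, and with RLE scaling the domain was called higher (0.51, SE 0.070, adjusted p = 1.82e-05), as were the other 2 Cemip domains (0.54 and 0.41). As deposited the fold change of the widest was 0.03 with an adjusted p of 0.910. Domains in the bodies of Vcl (0.78), Pdlim5 (0.66 and 0.59), Wdr1 (0.53), Tpm1 (0.48), Actn1 (0.38) and Fgf7 (0.53), which were picked after their values were seen and stand for no group of genes, were also called higher with RLE scaling. In the runs of domains over Palld, Capzb, Cald1 and Myo10 none was called higher. As deposited these were not called, with log2 fold changes from -0.10 at Actn1 to 0.31 at Vcl.

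Of the remaining domains among the 6 widest, and of the widest distal ones, only that over the Ugt1a cluster described above was called higher with RLE scaling. The domain of 60600 bp at chr13:63265301-63325900 overlaps Fancc, a gene of DNA crosslink repair, and 2010111I01Rik, whose start is the nearest at 25207 bp. It also holds the start of the long noncoding gene Gm16907. This domain had values of 1887 and 1883 in hypoxia against 1015 and 1130 in normoxia. The groups did not overlap and it was called lower (-0.34, SE 0.069, adjusted p = 0.00123), but with cyclic loess it was called higher (0.31). Myh9, which encodes a non-muscle myosin heavy chain, lay in 58800 bp at chr15:77785101-77843900 with values of 1690 and 1749 in hypoxia against 1046 and 1212 in normoxia. Its values did not overlap between the groups, but the domain was not called (-0.13, SE 0.069, adjusted p = 0.202). Plpp3, a lipid phosphatase, in 55600 bp at chr4:105174001-105229600, had values of 1138 and 1218 in hypoxia against 731 and 849 in normoxia, and Smad6, an inhibitor of bone morphogenetic protein signalling, in 53400 bp at chr9:63940101-63993500, had 1200 and 1234 against 714 and 886. Both were lower in normoxia as deposited and neither passed with RLE scaling (-0.10 and -0.13). The distal domains over Ski and Morn1 (51100 bp at chr4:155129101-155180200, 1134 and 1168 against 752 and 829) and in Col5a1, a fibrillar collagen gene (48800 bp at chr2:27911901-27960700, 931 and 899 against 592 and 654), were at -0.07 and -0.08 and did not pass. Myh9, Plpp3, Smad6, Ski and Col5a1 were all called higher with cyclic loess, at 0.46 to 0.53.

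Genes of chosen lists were looked up among the starts held by the domains. Of 16 immediate-early genes 11 had a start in a domain (68.8%), of 12 AP-1 genes 7 (58.3%), of 19 actin and contractile genes 10 (52.6%), of 21 matrix genes 11 (52.4%) and of 8 YAP targets 4 (50.0%), against 4.40% of all autosomal protein-coding genes. The shares were 5 of 14 for TGF-beta and BMP signalling, 3 of 9 for adipogenic, 5 of 23 for hypoxia response, 3 of 15 for osteogenic and 2 of 18 for stromal identity genes, and 1 of 15 blood and endothelial genes, Cd68, lay in a domain. The lists are short, hold well-known genes and were chosen with earlier results of these data known, so the shares describe the lists only. For the counts in the lists below, 28.3% of all promoter domains were called lower and 1.56% higher with RLE scaling. With cyclic loess 2 of the 768 promoter domains were lower and 129 higher. As deposited, both normoxia libraries were below both hypoxia libraries in 97.1% of them.

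**Figure D5:**
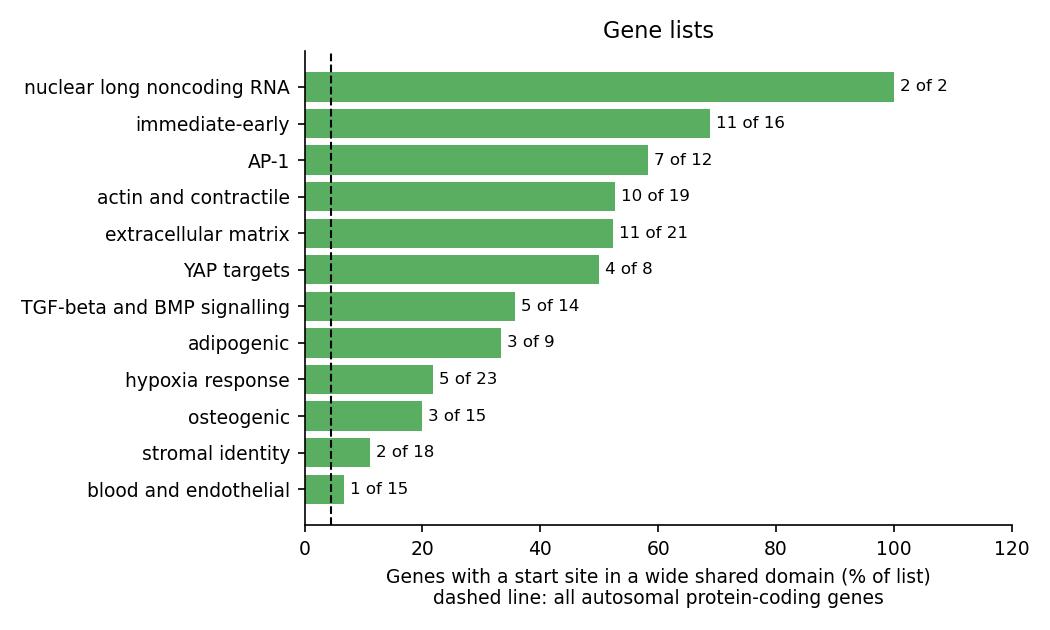
Share of each gene list with a start site in a wide domain (x axis, %), with the number of genes beside each bar and a dashed line at 4.40%, the share of all autosomal protein-coding genes. Immediate-early and AP-1 genes stand above the other protein-coding lists, and blood and endothelial genes are nearest the line.

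The AP-1 list includes the Fos and Jun genes, whose proteins bind TGANTCA as dimers. Of its 7 domains 4 were called lower and 0 higher with RLE scaling (median -0.44). Cyclic loess gave 0 lower and 3 higher (median 0.16). Fosb had values of 1545 and 1685 in hypoxia against 795 and 895 in normoxia. Its groups did not overlap (-0.46, SE 0.070, adjusted p = 6.79e-05). Fosl2 (961 and 975 against 588 and 595), Mafk (644 and 679 against 409 and 478) and Maff (453 and 416 against 306 and 330) were lower in both normoxia libraries as deposited, and none passed with RLE scaling (-0.23, -0.10 and 0.03).

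Of the 11 domains of immediate-early genes, 6 were called lower and 0 higher with RLE scaling (median -0.35), and 1 was lower and 2 higher with cyclic loess (median 0.16). Zfp36, an RNA-destabilising protein whose domain it shares with Plekhg2, had 1361 and 1514 in hypoxia against 701 and 815 in normoxia. Klf6 had 784 and 903 against 447 and 501. Both were lower in normoxia without overlap and were called (-0.45 and -0.35, adjusted p = 0.000129 and 0.00376). Btg2 (764 and 748 against 470 and 535) and the nuclear receptor Nr4a1 (545 and 558 against 370 and 401) did not overlap either, but were not called with RLE scaling (-0.11 and -0.04).

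Among matrix genes 7 of 11 domains were called lower and 0 higher (median -0.40), against 0 and 2 with cyclic loess (median 0.10). The domain of Col1a1 covered 27200 bp, with 779 and 906 in hypoxia against 457 and 454 in normoxia. The groups did not overlap (-0.40, SE 0.084, adjusted p = 0.00144). Timp3, an inhibitor of matrix proteases, had 748 and 767 against 384 and 446 (-0.39, adjusted p = 0.00185), and the promoter domain of Col5a1 had 648 and 593 against 389 and 425 (-0.13, adjusted p = 0.353). Among osteogenic genes, Col1a1 and Col1a2 (308 and 362 against 166 and 194) were called lower, and Atf4 (375 and 403 against 247 and 273) was at -0.10. With cyclic loess Col1a1 was at 0.13, Timp3 at 0.13, Atf4 at 0.34, the Col5a1 promoter domain at 0.38 and Col1a2 at -0.014.

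For the hypoxia response, 3 of 5 domains were called lower in normoxia and 0 higher (median -0.41), against 0 and 0 with cyclic loess (median 0.08). Bhlhe40, a transcriptional repressor, had 895 and 868 in hypoxia against 355 and 463 in normoxia. Its groups did not overlap (-0.64, SE 0.090, adjusted p = 1.93e-05). The glucose transporter gene Slc2a1 (787 and 796 against 399 and 456) and Ndrg1 (483 and 505 against 225 and 298) were also called lower (-0.41 and -0.45). Vegfa, the angiogenic growth factor, had 212 and 208 against 142 and 124 and was not called (-0.18, adjusted p = 0.316).

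The contractile and YAP lists had the medians nearest 0 with RLE scaling. Of 12 domains with starts of actin and contractile genes, 2 were called lower and 0 higher (median -0.12), against 0 and 8 with cyclic loess (median 0.37). The 2 were Ahnak (1617 and 1716 against 774 and 931, -0.49) and the domain of Zyx and Epha1 (1438 and 1526 against 723 and 926, -0.38), while a second domain over Myh9 that reaches Apol8 (415 and 434 against 326 and 309) was at 0.06. Of 4 domains of YAP targets limma, edgeR and DESeq2 each called 0 lower and 0 higher (limma median -0.10, with 1 lower and 1 higher at an unadjusted p under 0.05), against 0 lower and 3 higher with cyclic loess (median 0.49). Amotl2 had 1234 and 1263 in hypoxia against 786 and 869 in normoxia, Ccn1 had 989 and 1087 against 672 and 733, Lats2 had 218 and 211 against 180 and 181, and Axl had 203 and 221 against 118 and 134. In each of these 4 the normoxia libraries were below the hypoxia libraries as deposited, as in 97.1% of all promoter domains.

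Of 5 domains in the TGF-beta and BMP list limma called 0 with RLE scaling (median -0.20, with 3 lower and 0 higher at an unadjusted p under 0.05), edgeR called 0 and DESeq2 called 1 lower, and 3 were higher with cyclic loess (median 0.35). The inhibitor Smad7 had 843 and 866 against 505 and 564, Ski had 535 and 512 against 346 and 365, Id2 had 679 and 667 against 359 and 426, and Id3 had 514 and 526 against 411 and 425. Id3 was the least changed of these as deposited, at -0.32. Among adipogenic regulators, Cebpa (467 and 456 against 220 and 268) was called lower (-0.45, adjusted p = 0.0022), and Cebpb (311 and 314 against 211 and 213) and Cebpd (400 and 427 against 236 and 284) were not (-0.08 and -0.20). With cyclic loess all 3 were above 0 and none was called.

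Of the stromal identity genes, Cd44 and Pdgfra had a start in a domain. Cd44, a hyaluronan receptor, lay in 21000 bp at chr2:102881901-102902900 with values of 535 and 568 in hypoxia against 275 and 316 in normoxia. Pdgfra, which encodes the CD140a used in the sort, lay in 10400 bp at chr5:75148201-75158600 with 334 and 299 against 166 and 196. Neither overlapped between groups, and Cd44 passed with RLE scaling (-0.43, adjusted p = 0.00167) while Pdgfra did not (-0.33, adjusted p = 0.0359). With cyclic loess they were at 0.05 and 0.07. The Cd68 domain, shared with Eif4a1 and Mpdu1, had 489 and 457 against 287 and 319 (-0.17, adjusted p = 0.246).

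Base composition was also compared between the domains and narrower peaks. The median GC content was 50.6% in the domains and 45.9% in shared autosomal peaks under 8000 bp, and the median density of CpG was 17.1 and 10.8 per kb. Within promoter peaks the order was the other way, with 21.5 CpG per kb in domains and 34.1 in narrower promoter peaks. The AP-1 motif TGANTCA occurred 0.327 times per kb over the domains and 0.519 times over narrower shared peaks. In distal peaks the density fell from 1.02 under 500 bp to 0.346 in the domains. Within promoter peaks it was 0.315 in domains and 0.286 in narrower peaks, the other way round. Shared autosomal peaks of 4000 to under 8000 bp lay near the domains. They had a median GC content of 49.3%, a median of 15.8 CpG per kb and 0.3675 TGANTCA per kb. Across domains the fold change had a Spearman's rho of -0.30 with CpG density and of -0.03 with the share of soft-masked bases, given as descriptions. No test was run on these differences, since width is part of the rule.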

How the data were processed

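ATAC-seq of 4 MSC libraries was analysed. Per the study's methods, the authors aligned reads to mm10 with Bowtie2, removed duplicates with Picard and ran chromstaR in differential mode on all libraries. The values they deposited as RPKM are a signal per peak, not divided by width. In every library 100% of the signal values were whole multiples of 1 read (tolerance 0.001), which gave the library totals and the recovered reads. A read over neighbouring bins may count more than once, so no counting interval is given.

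Main test: limma 3.58.1 in R 4.3.3 (lmFit, eBayes with trend and robust, two-sided) on log2(value + 1) after RLE factors, Benjamini-Hochberg over 128055 peaks, adjusted p under 0.01. This scale understates changes of low peaks. Alternatives were values as deposited, an equal total, quantile normalisation, cyclic loess, other pseudocounts, a minimum mean value, other widths, a promoter window of 2 kb, the replicate block and leaving out each library. This fit was tested on simulated data with seeded changes and missed most of the smaller ones. The changes were seeded in peaks of any width, so this gives no rate of missed changes for the domains. edgeR 4.0.16 (quasi-likelihood) and DESeq2 1.42.0 ran on recovered reads. Annotation was GENCODE M21. Words of 32 bases, taken every 100 bp, were counted in GRCm38. The peaks named (6 widest, 6 highest per kb, 5 lowest p in each direction, 6 widest distal domains, up to the 4 widest of each list, 3 on each side of 8000 bp) followed fixed rules, and some of them are not reported here. The genes of body domains, named with the Cemip domain, the Csf1 and Hox genes and the runs were chosen after their values were seen. The members and lists were chosen with earlier results of these data known. The limma p-values rest on the spread between these libraries, which may be technical in part. The fit moderates the spread of each domain with that of all peaks, so a p-value does not measure a domain's own spread alone.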

Additional observations from a re-analysis of the deposited data

How the results depend on the processing

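With the main design there were 277 domains lower, 39 higher and a median log2 fold change of -0.20. As deposited these were 893, 10 and -0.67, with an equal total 39, 194 and 0.093, with quantile normalisation 16, 157 and 0.15, and with cyclic loess 3, 278 and 0.20. Without trend and robust estimation limma called 0 and 0 domains (164 lower and 44 higher at an unadjusted p under 0.05). An adjusted p under 0.05 gave 448 and 67. A width of at least 6000 bp gave 560 and 66 of 2650 peaks, and of at least 10000 bp 156 and 26 of 671. Leaving out each replicate gave 0 to 418 lower, 0 to 42 higher and medians of -0.23 to -0.17, where a condition left with 1 library is assumed to vary like the other. Without either hypoxia library every named domain lost its call. With an equal total 16 of the named domains called with RLE scaling lost the call, and with quantile normalisation 14. The cause of these changes was not tested. Pseudocounts, the minimum mean value, edgeR and DESeq2 kept both counts within 1.5 times. With the replicate block the counts were 321 and 48, and no call of a named domain changed. The replicate numbers could not be taken as pairs: deviations of libraries with the same number correlated at 0.010 over all peaks and 0.11 over the domains, with 2 pairs.

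The difference in share of the library total (-1.72) was -2.80 at 6000 bp, -1.14 at 10000 bp and -0.47 as a share of reads in nuclear peaks, with -1.88 to -1.56 without each replicate. The excess over narrower peaks (-0.41) was -0.38 at 10000 bp and -0.43 to -0.39 without each replicate, and the difference per kb (-9.42) was -10.3 to -8.53 without each replicate.

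Promoter domains were at 0.16, 0.034 and 0.097, distal domains at 0.27, 0.22 and 0.25 and domains of 15000 bp or more at 0.30, 0.11 and 0.15 with cyclic loess, an equal total and quantile normalisation. Shared autosomal peaks under 500 bp (0.17) were at -0.17 as deposited. The median of all peaks was 0.26 with an equal total, 0.020 with the minimum mean value, and -0.019 to 0.00071 without each replicate.

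With cyclic loess, named domains below 0 with RLE scaling were above 0 as follows. Those called lower with RLE scaling were Cd44 (0.052), Col1a1 (0.13), Cebpa (0.0045), Fosb (0.16), Zfp36 (0.16), Klf6 (0.19), Ahnak (0.13), Zyx (0.23), Timp3 (0.13), Slc2a1 (0.12), Ndrg1 (0.0089), Fancc (0.31) and Crlf2 (0.016). Those called higher only with cyclic loess were Atf4 (0.34), Fosl2 (0.33), Mafk (0.42), Nr4a1 (0.46), Btg2 (0.42), Myh9 (0.51), Amotl2 (0.49), Ccn1 (0.50), Col5a1 (0.38 and 0.49), Ski (0.41), Smad7 (0.35), Plpp3 (0.49), Smad6 (0.46) and Morn1 (0.53). Nr4a1 was also called higher with quantile normalisation (0.33) and Morn1 with an equal total (0.23). With 2 libraries per group no permutation test can pass 0.05, and the median domain held at least 438 reads in each library.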

Other observations

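The 4 peaks of at least 8000 bp outside the rule had these values. Those assigned to hypoxia only were Baiap2, a scaffold protein of actin-rich protrusions, in 10300 bp at chr11:119959301-119969600, with 464 and 456 in hypoxia and 73.5 and 88.8 in normoxia, Agbl3 in 8100 bp at chr6:34760101-34768200, with 121 and 133 against 32.6 and 27.7, and Lbh in 8200 bp at chr17:72938601-72946800, with 90.6 and 115 against 31.9 and 22.7. Their assignment used these values, so no test is given. The shared peak on X, at Flna, which encodes an actin crosslinker, covered 13900 bp at chrX:74206701-74220600 with 280 and 343 in hypoxia and 274 and 311 in normoxia.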
